A study of Mus musculus with 20 samples.

Results

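Of the 23329 gene symbols in the count table, 71 were read in GL261 glioma libraries and hardly at all in any other library of the series. The rule used CPM, the raw count of a gene scaled by the total count of its library. It kept genes with a mean of 10 CPM or more over the 3 GL261 microglia libraries and under 1 CPM in each of the 14 libraries without GL261, and it dropped symbols starting with Slc or Gpr, which removed 2 of 73 genes. The GL261 microglia and the 14 other libraries therefore chose the members, and their values are given as description. The 3 GL261 macrophage libraries were not used by the rule. Of all genes, 8684 were under 1 CPM in each of the 14 libraries. The ceiling is not an absence of reads elsewhere, as the counts at the thresholds near the end show.

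The series holds 20 libraries of polyadenylated RNA from sorted cells of C57BL/6 mice, made with a Smart-Seq kit, in 6 groups. GL261 tumours and tumours of a genetically engineered mouse model (GEMM) each gave microglia (MG, the resident macrophages of the brain) and bone-marrow-derived macrophages (BMDM) from 3 tumours, and normal brain gave 3 microglia libraries and blood 5 libraries of monocytes with high Ly6C. The GEMM tumours came from DF1 cells carrying RCAS-PDGFB-HA or RCAS-shP53 injected into the brain of Flt3:Cre Rosa26:mTmG mice of 5 to 6 weeks of age, whose reporter turns descendants of Flt3-expressing blood progenitors from tdTomato to GFP. From tumours, CD45+CD11b+Ly6C-Ly6G- cells were sorted, after perfusion with PBS, dissociation and removal of myelin, as MG (GFP-TdTomato+) or BMDM (GFP+TdTomato-). Protocol text of that kind stands with the GL261 libraries too, but the sources used here do not give how GL261 tumours were made, whether their hosts carried the reporter, or the gates for brain and blood. GL261 is an established transplantable glioma line of C57BL/6 mice. MG and BMDM libraries with the same number in their titles (80766, 80767 and 80769 for GL261) are taken as 1 tumour, since the series describes its microglia and macrophages as matched.

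The GL261 libraries held 18113450 to 22088979 counts, so 1 read was worth about 0.05 CPM, against 23064781 to 36297826 in GEMM and brain libraries and 5077787 to 7801073 in blood. Within GL261 tumours, markers differed between MG and BMDM in the direction of the labels, but MG also held RNA of macrophage marker genes. Whether that RNA came from recruited macrophages or from microglia was not tested. Sall1, a transcription factor of microglia, lay at 36.02 to 159 CPM in GL261 MG and at 0.502 to 1.09 in GL261 BMDM. Itga4, an integrin of recruited macrophages, lay at 17.3 to 38.6 CPM in GL261 MG, 70.1 to 87.2 in GL261 BMDM and 0.303 to 2.13 in normal microglia. The sum of 12 genes of bone-marrow-derived macrophages was 3975 to 4628 CPM in GL261 MG, 11803 to 18961 in GL261 BMDM, 880 to 1671 in GEMM MG and 62.6 to 86.2 in normal microglia, with each gene detected in every GL261 library. P2ry12, a purinergic receptor of microglia, lay at 178 to 753 CPM in GL261 MG, 53.1 to 72.0 in GL261 BMDM and 5649 to 6547 in normal brain microglia.

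The members are a mixed set. Some build cartilage and skeletal tissue (Col2a1, Col9a1), some are imprinted growth genes of the fetus (H19, Igf2), and some belong to the germline (Tex19.1, Xlr3c). Imprinted genes are expressed from one parental copy and many act in fetal growth, and germline genes are silenced in most adult tissues by DNA methylation. In bulk libraries, a change in the number of cells that express a gene and a change in RNA per cell cannot be told apart, and that holds for every difference below.

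The 71 genes together took 1289 CPM in the GL261 MG library of tumour 80766, 2217 in that of 80767 and 3737 in that of 80769, a mean of 2414 ± 1236 (SD, n = 3). In GL261 BMDM they took 444.6, 1102 and 1017 CPM in the same order of tumours, a mean of 855 ± 358 (SD, n = 3). The libraries of both cell types of GL261 tumours thus held these RNAs, MG more than BMDM in each tumour. Which cells the RNAs came from, the sorted cells or others of the tumour, was not tested. In normal microglia the sum was 8.29 ± 1.41 CPM, in GEMM MG 13.01 ± 4.90 and in GEMM BMDM 7.88 ± 1.7996 (SD, n = 3 each). In blood monocytes it ran from 5.13 to 19.5 CPM with a median of 11.4 (n = 5). The rule fixed these low values in the 14 other libraries.

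**Figure D1:**
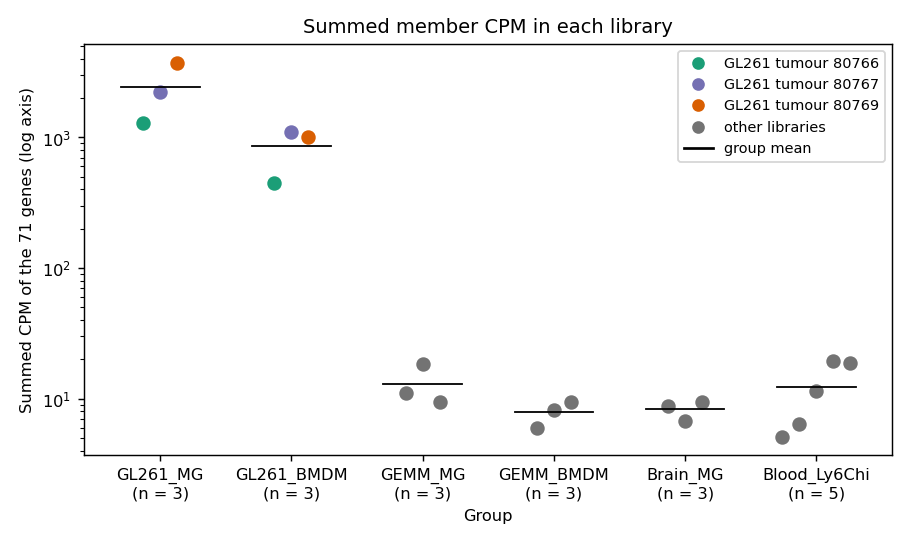
Summed CPM of the 71 genes (vertical log axis) in each of the 20 libraries by group; points are libraries, coloured by tumour for GL261, and bars are group means. GL261 MG libraries lie between 1289 and 3737 CPM, GL261 BMDM between 444.6 and 1102, and the 14 other libraries, which the rule holds low, at 19.5 or less.

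In MG, the order of the tumours did not rest on a few strong genes, while in BMDM that of 80767 and 80769 did. In MG, 58 of 71 members were highest in tumour 80769 and 63 were lowest in 80766. Only 11 members drew over 60 percent of their summed MG level from 1 library. In BMDM the highest library was 80767 for 43 members, 80769 for 27 and 80766 for 1. The 3 strongest members gave 22.1 to 28.4 percent of the summed level in the MG libraries. Without them MG of 80766, 80767 and 80769 summed to 988, 1727 and 2676 CPM, the same order. The BMDM libraries then summed to 352, 799 and 823 CPM, with 80769 above 80767.

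Values of some other lists moved with these sums. The sum of 26 glioma and neural progenitor genes, none of them a member, was 872, 1224 and 2200 CPM in GL261 MG of tumours 80766, 80767 and 80769. In GL261 BMDM it was 331, 632 and 626 CPM. In MG the order of libraries was that of the members. In BMDM 80766 was lowest for both, while 80767 and 80769 were nearly equal for this list. Outside GL261 it lay between 74.5 and 524 CPM, with normal microglia at 154 to 241, blood monocytes at 92.4 to 229 and the GEMM libraries at both ends. Among genes of that list, Egfr was at 0 in BMDM of 80767 and 80769, and Tnc in BMDM of 80769. Olig1, a transcription factor of the oligodendrocyte lineage in that list, was at 162, 244 and 517 CPM in MG and 55.2, 142 and 114 in BMDM.

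The sum of 12 microglia genes ran the other way in MG, at 12047 CPM in 80766, 10119 in 80767 and 3540 in 80769, and was 1469, 2010 and 901 CPM in BMDM. All 12 were detected in each GL261 library. The sum of 18 cell cycle genes was 1859, 1775 and 2841 CPM in MG and 1531, 1294 and 1304 in BMDM. Among other lists with no member, 14 pericyte or fibroblast genes summed to 205, 111 and 758 CPM in MG and 47.2, 102 and 170 in BMDM, and 35.997 to 46.4 in normal microglia. A list of 36 mesenchymal and matrix genes, which shares some of these, summed to 2008 to 3147 CPM in MG and 1674 to 5170 in BMDM. In normal microglia it was higher than in MG, at 3465 to 3892 CPM. Sums of 19 neuron and synapse genes (31.2 to 35.7 CPM) and 10 choroid plexus or ependyma genes (123 to 140) varied little among the MG libraries. A list of 11 melanocyte antigens summed to 1278, 1871 and 3160 CPM in MG and 1103, 1723 and 1048 in BMDM, against 17.6 to 35.7 in normal microglia. Nearly all of that sum was Gpnmb, which macrophages also express (1246, 1824 and 3124 CPM in MG), while Oca2 was at 0 in all 6 GL261 libraries and Tyr and Tyrp1 were at 0 in all but MG of 80767. The part of any of these lists in the members' levels was not tested.

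**Figure D2:**
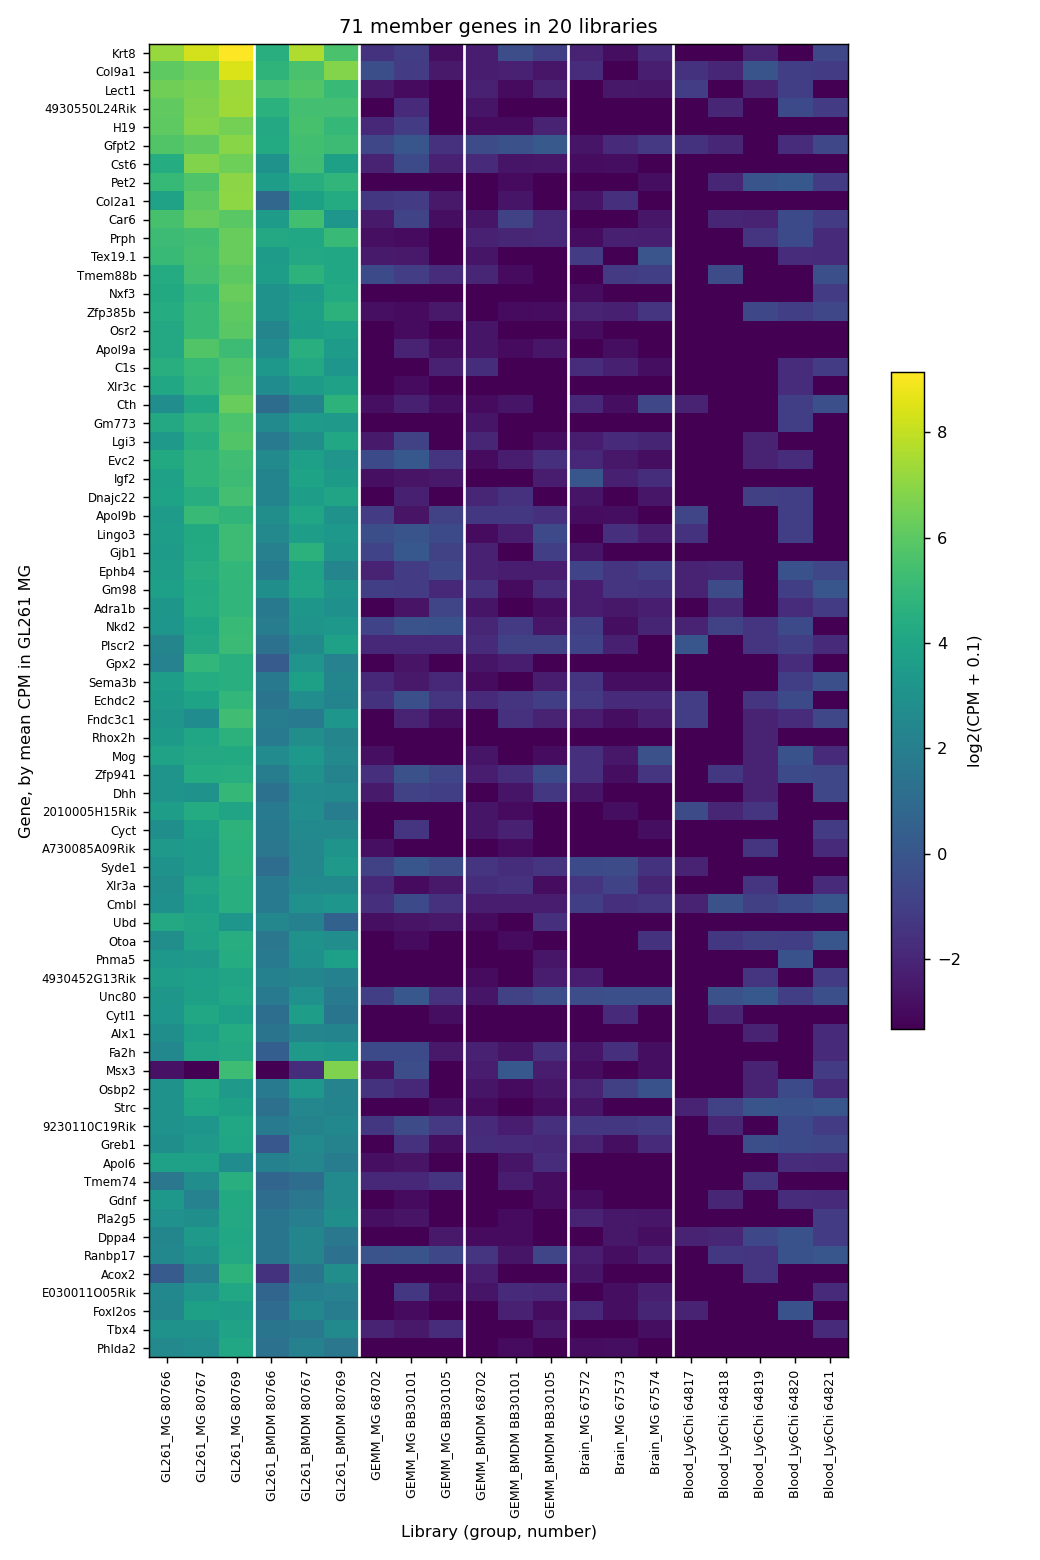
Level of each of the 71 genes (rows, by mean CPM in GL261 MG) in each of the 20 libraries (columns, white lines between groups), as log2(CPM + 0.1) by colour. The 6 GL261 columns are bright for nearly all rows, with Msx3 bright in the MG and BMDM libraries of tumour 80769 only.

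Within each tumour, the BMDM libraries held the members at a lower level than MG. The median BMDM to MG ratio of CPM over the members was 0.356 in tumour 80766, 0.467 in 80767 and 0.264 in 80769, beside 0.881, 0.835 and 0.752 over all genes with a mean of 5 CPM or more. MG was above BMDM in all 3 tumours for 69 of 71 members, against 48.4 percent of the 15363 genes tested. On totals scaled by TMM, which sets aside a difference in composition between libraries, the medians were 0.420, 0.567 and 0.346 for the members and 0.955, 0.962 and 0.941 for all tested genes, and 69 members kept MG above BMDM in each tumour, against 29.5 percent. Since MG values chose the members, part of this direction is fixed by the choice.

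Choosing through the libraries that the rule left aside gave 26 genes with a mean of 10 CPM or more in GL261 BMDM. All 26 are among the 71, 36.6 percent of them, and for 24 of the 26 MG was above BMDM in all 3 tumours. Their median BMDM to MG ratios were 0.366, 0.427 and 0.264. A choice on the mean of all 6 GL261 libraries gave 50 genes, 48 of them with MG above BMDM in each tumour. Over all genes tested, MG was above BMDM in all 3 tumours for 48.4 percent. The higher MG level was thus also seen in the 26 genes chosen on their BMDM level. They are no separate set, being members, and the choice of 50 used the MG values.

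The groups did not overlap, each MG library being above each BMDM library, for 38 of 71 members, against 32.1 percent of all genes tested; after TMM scaling the count was 26, against 15.5 percent. No member had BMDM above MG without overlap, against 8.11 percent.

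In the edgeR quasi-likelihood test over all 20 libraries, with the tumour left out of the model, 4 members were lower in BMDM than in MG and none was higher at a Benjamini-Hochberg adjusted p under 0.05. In all, 6.81 percent of genes tested were called lower and 10.7 percent higher. For the members, unlike genes in general, the rule held 14 of the 20 libraries under 1 CPM. The part of this in the members' count was not tested. The unadjusted p was under 0.05 for 27 of the 71. The median log2 difference, BMDM minus MG, was -1.21 over the members and -0.08 over all genes. The 4 are Lect1, Echdc2, Rhox2h and Xlr3c, described with their groups below. All 4 were called again without MG of 80766. None of the 4 was called without MG of 80767, MG of 80769 or BMDM of 80766, where 20, 7 and 7 members had an unadjusted p under 0.05, and 1 of the 4 was called without BMDM of 80767 and 1 without BMDM of 80769. DESeq2 called 12 members lower and limma-voom 43, against 8.05 and 10.2 percent of genes, and neither called one higher.

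Since the series pairs MG and BMDM by tumour, the same test with the tumour number as a replicate block over the 12 tumour libraries is given beside it. It called 34 members lower in BMDM and 1 higher, Msx3, against 8.68 and 13.6 percent of all genes. With a block over only the 6 GL261 libraries, an alternative added after the data were seen, 49 members were lower and none higher, against 7.65 and 10.8 percent. The 4 genes of the unpaired test were called in both. The share of all genes called lower was 6.81 percent in the unpaired test over 20 libraries. In an unpaired test over only the 6 GL261 libraries, 2 members and 1.74 percent of all genes were called lower. With the block over those libraries, both the members' count and the background share thus rose. The members' direction carries the choice described above.

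**Figure D3:**
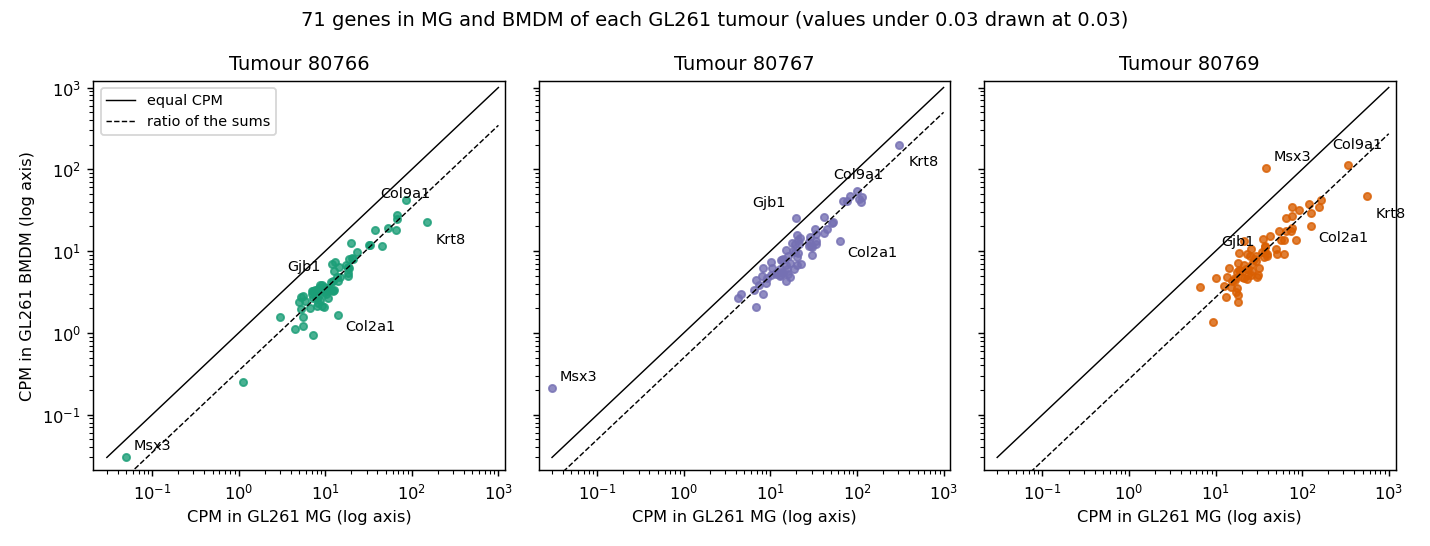
CPM of each of the 71 genes in BMDM (vertical log axis) against MG (horizontal log axis) of the same tumour, 1 panel per tumour; the solid line marks equal CPM and the dashed line the ratio of the summed CPM (0.345, 0.497 and 0.272). Most genes lie below the solid line and along the dashed one, with Gjb1 above the solid line in 80767 and Msx3 in 80769; Msx3 is also drawn above it in 80767, where MG held 0 reads and BMDM 4.

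How far the members shared 1 ratio within a tumour differed between tumours. An exact 95 percent Clopper-Pearson interval on the reads, which covers counting error only, held the tumour's ratio of summed CPM (0.345, 0.497 and 0.272) for 50, 31 and 27 of 71 members in 80766, 80767 and 80769. It lay above for 12, 15 and 20 and below for 9, 25 and 24. Col9a1 was the only member above it in all 3 tumours and Col2a1 the only one below in all 3. The interval of 10 members held it in each tumour, Igf2 among them. The ratio of summed CPM leans on the strongest members. Without the 3 highest it was 0.356, 0.463 and 0.307 in 80766, 80767 and 80769, and the intervals were not set against these values.

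Genes of cartilage matrix and of skeletal development numbered 8: Col9a1, Col2a1, Lect1, Cytl1, Evc2, Osr2, Alx1 and Tbx4. This and the other groups were put together after the members were known, and genes outside the rule for named genes are marked by that. The 8 summed to 228, 347 and 776 CPM in MG of 80766, 80767 and 80769 and to 90.5, 161 and 204 in BMDM. With the replicate block, 6 of the 8 were lower in BMDM, all but Cytl1 and Tbx4, against 8.68 percent of all genes. That share stands beside the block count of each group below too, and since the groups were assembled from members chosen on MG, nothing is read from those counts.

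Col2a1 encodes the main collagen of cartilage, type II (GRCm38.p6, chromosome 15, 97975602 to 98004724, minus strand). It was at 14.1, 64.2 and 128 CPM in MG of 80766, 80767 and 80769 and at 1.66, 13.3 and 20.4 CPM in BMDM. The groups overlapped, since MG of 80766 lay below BMDM of 80769, while within each tumour MG was several times higher. The log2 difference of -2.20 ± 0.81 (SE) had an adjusted p of 0.0782 in edgeR, and with the replicate block it was -2.33 ± 0.24 with 0.0011, in a range of 0.0011 to 0.331 over the alternatives. Its ratio of BMDM to MG, 0.117, 0.207 and 0.159, was the steadily low one of the set.

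Col9a1, a chain of the type IX collagen that coats cartilage fibrils (chromosome 1, 24177589 to 24252738), was at 66.9, 82.5 and 342 CPM in MG and 27.8, 47.6 and 112 in BMDM. Tumour 80769 was high in both cell types, with its BMDM above MG of the other tumours. The log2 difference was -1.05 ± 0.55 with an edgeR adjusted p of 0.201, and -0.93 ± 0.18 with 0.0114 under the replicate block, the lowest p of alternatives that reached 0.991. Without MG of 80769 the unpaired difference was 0.036.

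Lect1, now Cnmd, encodes chondromodulin, a cartilage protein that restrains vessel growth (chromosome 14, 79637682 to 79662194). It was at 85.5, 99.6 and 157 CPM in MG and 42.2, 54.2 and 34.9 in BMDM. All 3 MG libraries lay above all 3 BMDM libraries, and the library pair of 80769 was the widest apart. It was lower in BMDM by edgeR, with a log2 difference of -1.07 ± 0.32 (SE) and an adjusted p of 0.0290, in a range of 0.000988 to 0.128 over the alternatives.

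Alx1, a homeobox factor of the developing face, was at 7.30, 12.8 and 19.9 CPM in MG and 2.66, 4.99 and 4.80 in BMDM, without overlap (edgeR adjusted p 0.0890, and 0.0342 with the replicate block, in a range of 0.00668 to 0.289). Tbx4, a T-box factor of the hind limb, was at 8.30, 8.17 and 14.3 CPM in MG and 2.76, 3.02 and 6.20 in BMDM, also without overlap. Osr2, a zinc finger factor of limb and palate that is named after its values were seen, was at 18.2, 33.3 and 62.1 CPM in MG and 5.02, 12.3 and 13.8 in BMDM (0.0539, and 0.0133 with the block, in a range of 0.00678 to 0.245). These 3 developmental factors shared the order of the tumours in MG, apart from the near equal Tbx4 values of 80766 and 80767. Over a list of 53 homeobox cluster genes in the table, the 52 other than Alx1 summed to 26.5, 33.7 and 55.5 CPM in MG and 9.93, 16.1 and 20.9 in BMDM.

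The 2 intermediate filament genes were Krt8 and Prph. Krt8, a keratin of simple epithelia (chromosome 15, 101996711 to 102004342, minus strand), had the highest level of all members per kilobase of exon, 173 CPM per kb in MG. It was at 149, 307 and 562 CPM in MG of 80766, 80767 and 80769 and at 22.4, 201 and 47.3 in BMDM. The BMDM library of 80767 stood above MG of 80766, so the groups overlapped, and the BMDM to MG ratio ran from 0.0842 in 80769 through 0.151 in 80766 to 0.654 in 80767. No other member with a mean of 50 CPM or more in MG varied over as wide a range of ratios.

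The log2 difference of Krt8 was -1.61 ± 0.60 (SE) with an edgeR adjusted p of 0.0742, and -2.03 ± 0.55 with 0.0373 under the replicate block, in a range of 0.0023 to 0.304 over the alternatives. Krt18, the keratin that pairs with Krt8 in filaments, is no member because GEMM BMDM held it at 1.60 to 2.67 CPM. It was at 8.15, 13.9 and 11.3 CPM in GL261 MG and 0.251, 6.15 and 2.81 in GL261 BMDM, again with 80767 the highest BMDM library. Prph, peripherin of peripheral neurons, was at 37.1, 41.2 and 76.1 CPM in MG and 18.3, 16.8 and 35.0 in BMDM, with MG above BMDM in each library (edgeR adjusted p 0.157, and 0.0138 with the replicate block, in a range of 0.0138 to 0.530).

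Among imprinted growth genes, H19, Igf2 and Phlda2 were members. They lie near each other on chromosome 7, H19 at 142575530 to 142578146, Igf2 at 142650768 to 142666816 and Phlda2 at 143501545 to 143503145. H19, a long noncoding RNA made from the maternal copy, was at 65.8, 114 and 91.6 CPM in MG and 18.0, 45.4 and 31.7 in BMDM. Unlike most members it was highest in tumour 80767 in both cell types.

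Igf2, a fetal growth factor made from the paternal copy, was at 13.7, 28.7 and 37.4 CPM in MG and 4.77, 14.8 and 11.1 in BMDM. Phlda2, a maternal-copy gene that restrains placental growth, was at 5.79, 6.90 and 17.9 CPM in MG and 2.46, 4.40 and 2.94 in BMDM. Under the replicate block H19 and Igf2 were lower in BMDM, by 1.28 ± 0.32 and 1.11 ± 0.30 on the log2 scale (edgeR adjusted p 0.0305 and 0.0356), and Phlda2 had -1.19 ± 0.47 with 0.130. In the unpaired test none of the 3 was called, with adjusted p of 0.0778, 0.255 and 0.128. Over the alternatives the ranges were 0.0013 to 0.263, 0.0231 to 0.571 and 0.0231 to 0.514.

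A list of 22 oncofetal and imprinted genes, which holds H19 and Igf2, had 17 tested, of which 5 were lower in BMDM and none higher by edgeR, against 6.81 and 10.7 percent of all genes, with a median log2 difference of -1.17 against -0.08. Without the 2 members the list summed to 199, 247 and 359 CPM in MG, 52.7, 114 and 84.7 in BMDM and 15.1 to 74.5 in GEMM libraries. Its GEMM range thus overlapped that of GL261 BMDM and lay below GL261 MG.

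The germline and pluripotency genes were Tex19.1, Xlr3a, Xlr3c, Rhox2h, Nxf3, Dppa4 and Cyct. Each of the 7 was highest in MG of 80769. They summed to 99.5, 161 and 299 CPM in MG and 38.9, 65.8 and 70.99 in BMDM, and 2 were lower in BMDM in the unpaired edgeR test and 4 with the replicate block. Xlr3a, Xlr3c, Rhox2h and Nxf3 lie on the X chromosome.

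Tex19.1, a germline gene that guards against transposons and is known to be kept silent by DNA methylation (chromosome 11, 121146143 to 121148314), was at 33.0, 45.3 and 74.8 CPM in MG and 11.7, 18.5 and 17.8 in BMDM, without overlap. Its log2 difference was -1.35 ± 0.56 with an edgeR adjusted p of 0.102, and -1.32 ± 0.23 with 0.0104 under the replicate block, in a range of 0.00447 to 0.319. The 150 bases before its start (RefSeq, GRCm38.p6, chr11:121145993-121146142, plus strand) hold 9 CG pairs, the sites where methylation can occur, and those of Krt8 (chr15:102004343-102004492, minus strand) hold 3; they are shown as a member of the germline group beside the strongest member, with CG in capitals.
Tex19.1: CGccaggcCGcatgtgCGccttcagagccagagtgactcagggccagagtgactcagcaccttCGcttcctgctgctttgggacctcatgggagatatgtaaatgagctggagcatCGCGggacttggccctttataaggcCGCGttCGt
Krt8: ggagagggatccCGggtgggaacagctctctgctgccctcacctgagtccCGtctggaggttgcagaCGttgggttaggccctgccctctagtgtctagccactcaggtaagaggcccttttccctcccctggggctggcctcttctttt
Over the 54 members with a RefSeq promoter entry the median was 5 CG pairs in the 250 bases before the start, against 6 over 27025 promoters.

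Xlr3c and Xlr3a, of a lymphocyte-regulated X-linked family with near-identical copies whose reads may be split or shared, were at 17.5, 29.8 and 56.3 CPM and at 7.04, 15.6 and 22.4 CPM in MG. In BMDM they were at 6.67, 11.7 and 13.8 and at 3.26, 6.05 and 6.11 CPM, each MG library above each BMDM library. Xlr3c was lower in BMDM, with a log2 difference of -1.36 ± 0.45 and an edgeR adjusted p of 0.0499, close to the threshold and in a range of 0.00787 to 0.255 over the alternatives. Xlr3a had -1.22 ± 0.59 with 0.164.

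Rhox2h, a reproductive homeobox gene of a cluster of near copies on X (37668997 to 37673277), was at 10.97, 16.6 and 25.9 CPM in MG and 3.31, 7.06 and 5.07 in BMDM. In the 14 other libraries together it had 1 read, the fewest of all members. It was lower in BMDM with a log2 difference of -1.48 ± 0.46 and an edgeR adjusted p of 0.0434, in a range of 0.00119 to 0.166. A list of 38 cancer-germline genes, 3 of them members, had 18 tested, of which 4 were higher and 1 was lower in BMDM by edgeR, against 10.7 and 6.81 percent of all genes, with a median log2 difference of -0.18. The 1 called lower was the member Xlr3c. Of the 15 tested genes of that list that are no members, 7 had a negative log2 difference.

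Apol9a, Apol9b, Apol6 and Ubd, named after their values were seen, were grouped as 4 members known to be induced by interferons. None of the 4 was highest in MG of 80769, a trait they shared with 9 other members. Ubd, a ubiquitin-like modifier also called FAT10, was at 18.5, 15.2 and 9.22 CPM in MG and 5.37, 4.30 and 1.36 in BMDM. Apol6, an apolipoprotein L, was at 13.9, 13.9 and 6.59 CPM in MG and 4.36, 5.41 and 3.62 in BMDM. Ubd was thus lowest in the tumour where most members were highest, in both cell types, and it was the only member highest in BMDM of 80766.

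Apol9a was at 18.4, 53.0 and 37.7 CPM in MG and 6.37, 22.7 and 11.5 in BMDM, and Apol9b at 11.8, 33.2 and 28.1 and at 7.02, 16.2 and 8.10. Both were highest in tumour 80767. With the replicate block Apol9a and Ubd were lower in BMDM (edgeR adjusted p 0.0212 and 0.0219, and 0.138 and 0.109 unpaired), and Apol9b and Apol6 were not called (0.126 and 0.191).

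A motif that resembles the site of interferon response factors (TTTC, 2 bases of any kind, TTTC) was searched on both strands in the 250 bases before the start. It was found in 5 of 54 members, 9.26 percent, and in 3.04 percent of all promoters. Apol9a and Apol9b held 2 overlapping matches each, and Ubd none. The 150 bases before their starts are printed, since the 2 genes are near copies of each other whose reads can be confused; capitals mark the matches (RefSeq, GRCm38.p6, chr15:77411081-77411230, minus strand, and chr15:77728922-77729071, plus strand, whose end lies inside the annotated span of Apol9b, which begins at 77729047).
Apol9a: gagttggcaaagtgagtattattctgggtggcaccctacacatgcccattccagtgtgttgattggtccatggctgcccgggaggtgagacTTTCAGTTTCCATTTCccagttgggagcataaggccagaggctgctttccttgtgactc
Apol9b: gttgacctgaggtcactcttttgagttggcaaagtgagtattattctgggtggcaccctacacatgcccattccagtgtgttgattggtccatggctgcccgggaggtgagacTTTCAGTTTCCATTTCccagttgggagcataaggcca
Pnma5, Unc80 and Zfp941 held the other matches. The remaining motifs searched on both strands were GGGCGG (33.3 percent of members and 32.9 percent of all promoters), CCAAT (44.4 and 34.5), TATAAA (11.1 and 12.97), TGANTCA (11.1 and 6.87) and CACGTG (7.41 and 6.05). A match describes letters in the window and no binding was measured.

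**Figure D4:**
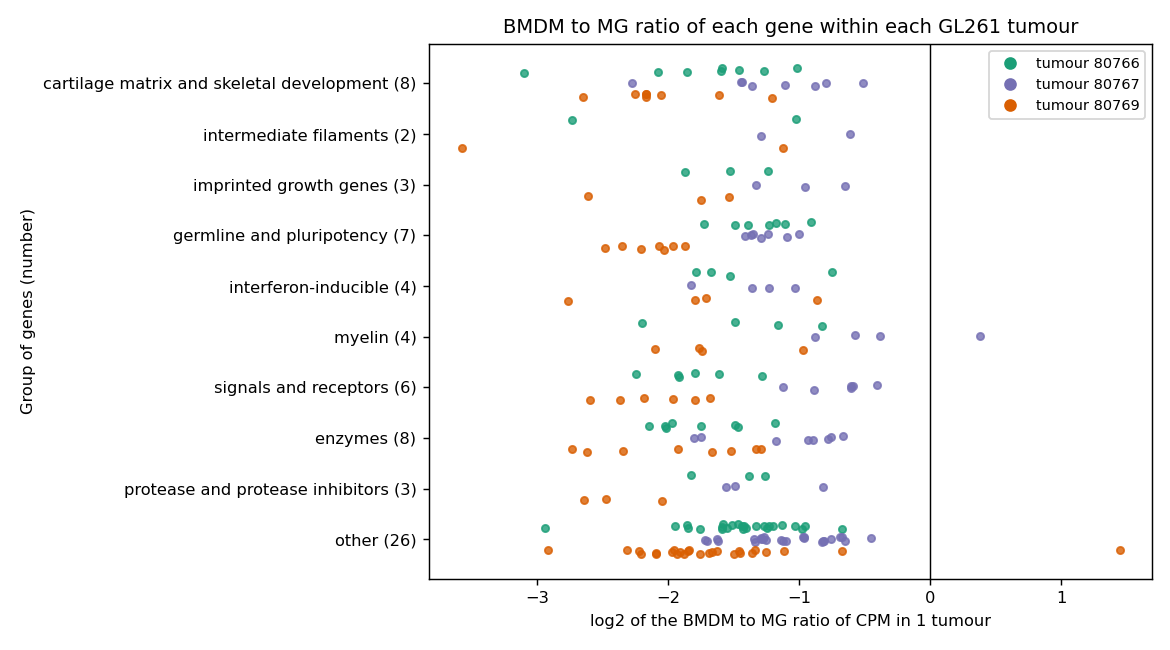
BMDM to MG ratio of CPM within 1 tumour, as log2 (horizontal axis), for each member by group (vertical axis, number of genes in brackets); each point is 1 gene in 1 tumour, coloured by tumour, the line marks equal CPM, and Msx3 is drawn for tumour 80769 only. Points lie left of the line except Gjb1 in tumour 80767 and Msx3 in 80769, and the median ratio of the myelin genes in 80767 is 0.718.

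The myelin genes Mog, Gm98 (now Myrf), Fa2h and Gjb1 were each highest in MG in tumour 80769 and in BMDM in 80767. They summed to 44.4, 73.3 and 103 CPM in MG and 19.06, 61.2 and 32.2 in BMDM, and none was lower or higher in BMDM in the unpaired edgeR test or with the replicate block. Gjb1, a connexin of myelinating cells (chromosome X, 101376376 to 101385629), was at 11.7, 19.6 and 36.6 CPM in MG and 4.16, 25.5 and 8.56 in BMDM. In tumour 80767 it was higher in BMDM, with 481 reads against 355 and a ratio of 1.30 (exact 95 percent interval 1.13 to 1.50, counting error only).

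Mog, a surface protein of myelin, was at 14.3, 18.2 and 18.9 CPM in MG and 6.42, 9.92 and 5.66 in BMDM, without overlap. Gm98, the factor that switches on myelin genes, was at 12.9, 20.3 and 29.2 CPM and at 7.27, 15.5 and 8.60 CPM. Fa2h, an enzyme of myelin lipids, was at 5.53, 15.2 and 18.4 CPM and at 1.20, 10.2 and 9.37 CPM. The last 2 overlapped between groups. Of 10 oligodendrocyte genes, the 9 other than Mog summed to 492, 692 and 879 CPM in MG, 352, 520 and 379.7 in BMDM, 152 to 230 in GEMM libraries, 180 to 417 in normal microglia and 516 to 785 in blood monocytes, and their part in these values was not tested.

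Signal and receptor genes were Gdnf and Dhh (secreted ligands), Sema3b (a secreted guidance cue), Ephb4 and Adra1b (receptors) and Nkd2 (an inhibitor of Wnt signalling), all named after their values were seen. All 6 were highest in MG of 80769, at 18.9 CPM for Gdnf, 31.8 for Dhh, 23.4 for Sema3b, 30.6 for Ephb4, 29.7 for Adra1b and 34.0 for Nkd2. Their BMDM libraries lay between 2.06 and 14.5 CPM. None passed the threshold in the unpaired test or with the replicate block, where edgeR adjusted p ran from 0.0510 to 0.125.

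Of 8 enzymes, 5 were lower in BMDM with the replicate block and 1, Echdc2, also in the unpaired test. Echdc2, an enoyl-CoA hydratase-like protein of mitochondria (chromosome 4, 108165436 to 108179308), was at 10.8, 15.1 and 30.0 CPM in MG and 2.66, 6.68 and 4.89 in BMDM, without overlap. The log2 difference was -1.66 ± 0.54 with an edgeR adjusted p of 0.0403, in a range of 0.00516 to 0.196.

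Gfpt2, which feeds glucose into the hexosamine pathway, was at 53.5, 68.4 and 119.6 CPM in MG and 19.3, 40.5 and 37.7 in BMDM, without overlap (log2 difference -0.99 ± 0.38, edgeR adjusted p 0.0804, and 0.0377 with the replicate block, in a range of 0.0107 to 0.337). Car6, a secreted carbonic anhydrase, was at 44.9, 76.7 and 61.5 CPM in MG and 11.5, 41.4 and 9.24 in BMDM. Like H19 it was highest in 80767 in both cell types, and its log2 difference was -1.27 ± 0.57 with an edgeR adjusted p of 0.132, and -1.56 ± 0.33 with 0.0156 under the replicate block (range 0.00366 to 0.384). Cth and Acox2, named after their values were seen, were carried by tumour 80769, with Cth, the cysteine-making enzyme of transsulfuration, at 6.74, 17.0 and 76.0 CPM in MG and 2.01, 4.88 and 26.5 in BMDM. Without MG of 80769 the unpaired log2 differences turned to 0.23 for Cth and 0.62 for Acox2.

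The cysteine protease inhibitor Cst6 was at 20.8, 111 and 84.6 CPM in MG and 7.98, 39.6 and 13.5 in BMDM, again highest in 80767. It was lower in BMDM with the replicate block, by 1.54 ± 0.33 on the log2 scale (edgeR adjusted p 0.0173, and 0.108 unpaired, in a range of 0.0166 to 0.343). With C1s and 2010005H15Rik (now Csta2), 2 of 3 genes for proteases and their inhibitors were lower in BMDM under the block.

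Of the 26 members outside these groups, 11 were lower and 1 was higher in BMDM with the replicate block. 4930550L24Rik, a gene on X (58909356 to 58920305), was at 67.2, 105 and 166 CPM in MG and 24.9, 43.2 and 42.5 in BMDM, without overlap (log2 difference -1.29 ± 0.45, edgeR adjusted p 0.0566, and 0.0263 with the replicate block, in a range of 0.00217 to 0.323). Pet2 (now Dcaf8l), also on X (89403848 to 89409689), was at 32.4, 52.0 and 126 CPM in MG and 11.99, 21.7 and 29.6 in BMDM, likewise without overlap (-1.40 ± 0.50, edgeR adjusted p 0.0669, and 0.0082 with the replicate block, in a range of 0.0082 to 0.409). Pnma5, a paraneoplastic antigen gene on X, was at 9.86, 10.2 and 21.0 CPM in MG and 3.56, 7.43 and 13.2 in BMDM, with the difference nearest to 0 of all members, -0.44 ± 0.72 (edgeR adjusted p 0.711).

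Msx3, a homeobox factor of the dorsal neural tube (chromosome 7, 140046157 to 140049088), behaved unlike the other 70. It was at 0.0503, 0 and 38.4 CPM in MG of 80766, 80767 and 80769 and at 0, 0.212 and 104 CPM in BMDM. In the other tumours that is 1 read or none in MG and 4 reads or none in BMDM, and a count of 0 allows up to 0.166 CPM in MG of 80767 and 0.150 in BMDM of 80766 (3 reads, counting error only). Both libraries of tumour 80769 held it, BMDM at 2.72 times MG (exact 95 percent interval 2.51 to 2.95, counting error only). Its call as higher in BMDM with the replicate block (log2 difference 1.84 ± 0.51, edgeR adjusted p 0.0401) rests on that tumour, and without BMDM of 80769 the unpaired difference was -6.54.

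In GL261 BMDM against GEMM BMDM, 70 of 71 members were higher in GL261 by edgeR, against 10.2 percent of all genes, with Msx3 the exception (adjusted p 0.0640). The rule held GEMM BMDM under 1 CPM, so nothing is read from that count. In GL261 BMDM, which the rule did not use, 68 of 71 members were at 1 CPM or more in each library and 26 had a mean of 10 CPM or more, with means from 3.23 to 90.1 CPM. In MG the means ran from 10.2 to 339 CPM, and 36 members were at 10 CPM or more in each library.

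The mirrored rule gave a much shorter list. No gene had a mean of 10 CPM or more in GEMM MG with under 1 CPM in each library without GEMM in its name, and 2 genes did so through GEMM BMDM, Cyp26a1 and Prg2. Both came from 1 tumour, 68702, at 37.2 and 36.7 CPM, with the other 2 GEMM BMDM libraries at 3.22 CPM or less.

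Around the thresholds, Phlda2, Tbx4 and Foxl2os were just inside the minimum at means of 10.2, 10.3 and 10.5 CPM, and Bex4, Kctd15 and H2-Bl just outside at 9.99, 9.80 and 9.53. Under the ceiling, Gfpt2, Gjb1 and Pet2 reached 0.998, 0.992 and 0.985 CPM in 1 library of another group, and Efna1, Gli3 and Tmem169 were left out at 1.05, 1.08 and 1.08. Of the members, 32 had no read in at least 7 of the 14 other libraries and 1, Cmbl, had a read in each.

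All 71 members matched RefSeq genes of GRCm38.p6, 7 of them by an older name, 66 protein coding and 5 long noncoding. Chromosome 15 held 12 of them, 16.9 percent against 4.06 percent of tested genes, and X held 10, 14.1 against 3.67 percent. Several stand close together. On X, Pnma5 (73033981 to 73039721), Xlr3a (73086293 to 73097095) and Xlr3c (73254538 to 73265576) are near neighbours, and on chromosome 15 Apol6 (77045050 to 77057108), Apol9a (77403789 to 77411080) and Apol9b (77729047 to 77736382). Exons of 12 members overlap a gene of the opposite strand and those of 5 a gene of the same strand, and as the strand setting of the counting is not given, such reads cannot be assigned with certainty; H19 holds the microRNA gene Mir675, and Krt8 overlaps Gm36026.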

How the data were processed

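The authors deposited raw counts per gene symbol in 1 table of 20 libraries, whole numbers with unequal totals. Per the submitters' processing notes, the build was mm10 and the tools were STAR 2.5.0e, CASAVA 1.8, DESeq2 and HTSeq, with no role or order; annotation and strand setting: not given in the sources used here. Library and column names were matched by number, cell type and model, with RCAS in the table standing for GEMM in the titles.

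CPM used column totals. A filter on low counts (filterByExpr with a minimum count of 10 and a total of 15) left 15363 of 21798 genes, which were TMM-scaled and tested in R 4.3.3 with edgeR 4.0.16 (quasi-likelihood, robust) over all 20 libraries and 6 groups, with calls below 0.05 after Benjamini-Hochberg adjustment across those genes. Alternatives were DESeq2 1.42.0, limma-voom (limma 3.58.1), RLE scaling, no filter, only the groups compared, each replicate left out, a replicate block and other thresholds of the rule. The members, 27 gene lists and groups were chosen with earlier results of these data known.

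Named genes are the 12 members highest in GL261 MG, those called, the 4 with differences nearest to 0, the 6 highest in GL261 BMDM, up to 4 of each list and those at the thresholds. Others were chosen after their values were seen.

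The series' design text gives MG and BMDM as matched from 3 tumours, without naming the model. In deviations from group means, across genes, same-numbered GL261 libraries correlated at r = 0.39, 0.22 and 0.39 and GEMM libraries at 0.32, 0.22 and 0.20, with 0.08 the highest between other numbers. The deviations of the 3 libraries of a group cancel out for each gene, so a positive value for the same number pulls the others down. Part of this contrast is thus fixed by the centring. Nothing says how samples of 1 group were otherwise processed. The unpaired p-values rest on the spread within groups, estimated over all 20 libraries, brain and blood among them. For the members, 14 of these were held under 1 CPM by the rule, so their spread comes in part from counts near the floor. Counts of members called and shares of all genes are therefore not fully alike. The GEMM libraries in the replicate block over the tumour libraries carry the same limit. With the replicate block they rest on the spread of the BMDM to MG difference among tumours. Both cover only the samples of this series. Every 2 libraries of a group differed by more than sampling noise (chi-square over its degrees of freedom of at least 3.20).

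Tested on simulated counts of 15363 genes for GL261 BMDM against MG, edgeR recovered 57.8 percent of 2-fold and 91.8 percent of 4-fold changes, with 6 false of 159 calls. The main test on the real counts called far more genes, 1646 higher and 1046 lower in BMDM. No recovery rate was computed for the members, so the simulated rates do not tell how often a change in a member would be called. An item of the gene lists is not reported here.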

Additional observations from a re-analysis of the deposited data

How the results depend on the processing

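The number of members depended on the thresholds: 135 genes with a minimum mean of 5 CPM, 31 with 20 CPM, 28 with a ceiling of 0.5 CPM, 128 with a ceiling of 2 CPM and 36 with 10 CPM or more in each MG library, beside 71. In GL261 BMDM, 68 members were at 1 CPM or more in each library and 26 at 10 CPM or more in mean.

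For GL261 BMDM against MG, the 4 members called lower became 12 with DESeq2, 43 with limma-voom, 2 with only the groups compared, 34 with the replicate block, and 49 with the block over the GL261 libraries, the last chosen after seeing the data. Leaving out 1 replicate gave 0 to 13, with 0 without MG of 80767, MG of 80769 or BMDM of 80766. Members called higher, 0 in the main test, were 1 without MG of 80769 and 1 with the replicate block; left-out replicates gave 0 to 1. The share of all genes called lower moved as well, from 1.74 percent with only the groups compared to 10.2 percent with limma-voom. Of the 4, 1 was called with only the groups compared, and 1 without BMDM of 80767, 1 without BMDM of 80769, and all 4 without MG of 80766 and with DESeq2, limma-voom, RLE scaling, no filter and both blocks. The cause of these changes was not tested. RLE scaling and no filter each gave 5.

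Direction changed for the log2 differences of Col9a1 (0.036 without GL261 MG of 80769, and -1.83 to 0.036 over the left-out replicates) and Msx3 (-6.54 without GL261 BMDM of 80769, and -6.54 to 10.33 over the left-out replicates). Cth and Acox2 turned as well, to 0.23 and 0.62 without GL261 MG of 80769, where 67 of 71 members were below 0. For GL261 BMDM against GEMM BMDM, counts stayed at 69 to 71 members in every alternative run; no block was possible there. In GL261 libraries 1 read is worth about 0.05 CPM, and 3 tumours limit the precision of each test.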
